A study of Drosophila melanogaster with 3 samples.

Results

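A chromatin immunoprecipitation peak list carries a tail of entries that score just below the line drawn for reproducible peaks, and 1664 such entries that nevertheless recurred in every replicate are described here. They are the entries of the pooled list on the dm6 build of the Drosophila melanogaster genome that ranked 5509 to 10000 by the peak caller's signal score, overlapped no IDR peak by 1 bp or more, and overlapped an entry ranked 1 to 12000 in the list of each of the 3 replicates. Of the 30000 pooled entries they are 5.55%. The band of ranks held 4492 entries, of which 395 overlapped an IDR peak and were left out. The other 4097 divided into the 1664 reproduced entries (40.6%) and 2433 unreproduced entries. Unreproduced here means outside the first 12000 of at least 1 replicate. Of the 2433, 1957 were within that limit in 2 replicates, 466 in 1 and 10 in none. The reproduced entries were thus chosen by their pooled score and rank and by their ranks in the replicates. Those values are given as a description and carry no test.

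All 3 replicates were whole embryos of both sexes, 0 to 16 hours old, of 1 transgenic line that stably expresses Tinman (gene tin) with GFP fused to its C-terminus, with the tagged protein precipitated through GFP. The labels' antibody field names tin, while their description names an antibody against GFP. The samples form 1 group with no other genotype, treatment or stage, so the comparisons run between sets of entries. In a whole embryo, weak binding in many cells and strong binding in few cells cannot be told apart. The pooled list and the lists of replicates 1 and 2 held 30000 entries each and the list of replicate 3 held 24711, and none of them holds read counts.

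Tinman is a homeodomain protein of the NK-2 class that binds the core letters TCAAGTG or TTAAGTG and is required for the heart and the visceral muscle of the fly embryo, both of which arise from dorsal mesoderm. The irreproducible discovery rate (IDR) compares the ranks of peaks in replicate experiments and draws a line where the ranks cease to be coupled. In the lists used here the IDR peaks are the first 5508 pooled entries by score. Of these, 5434 had an overlapping entry in all 3 replicate lists, so an IDR peak need not recur in each replicate. Entries below that line are a mixture that can hold weaker binding as well as background.

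The DNA at the summits, the position of highest signal inside each entry, is shown first for entries at mesoderm genes and for high-scoring entries with a Tinman site or a DNA replication-related element (DRE, TATCGATA), a promoter motif bound by Dref. Each line gives 61 bases of the plus strand centred on the summit, from the RefSeq Release 6 genome (dm6), with any Tinman site in capitals in the first 5 lines and the DRE in capitals in the last 2.
pnr, chr3R:16034160-16034220: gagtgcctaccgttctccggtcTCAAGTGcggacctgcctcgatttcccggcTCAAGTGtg
Doc3, chr3L:9004954-9005014: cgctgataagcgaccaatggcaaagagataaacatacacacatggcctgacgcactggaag
tin, chr3R:21377356-21377416: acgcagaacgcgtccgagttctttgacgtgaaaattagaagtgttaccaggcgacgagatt
CG33796, chr3L:16168855-16168915: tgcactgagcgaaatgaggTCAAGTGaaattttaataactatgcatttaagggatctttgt
CG14830, chr3L:7262732-7262792: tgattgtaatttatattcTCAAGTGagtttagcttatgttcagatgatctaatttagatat
CycA, chr3L:11833544-11833604: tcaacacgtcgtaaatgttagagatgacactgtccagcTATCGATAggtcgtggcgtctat
Usp7, chrX:12029053-12029113: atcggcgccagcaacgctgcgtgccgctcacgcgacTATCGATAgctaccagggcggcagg
The window at pnr, a GATA factor of the heart and dorsal ectoderm, holds the Tinman letters TCAAGTG at 2 places. The windows at Doc3, a T-box gene of the dorsal mesoderm and amnioserosa, and at the higher-scoring entry of tin itself hold none. CG33796 and CG14830 are the genes with the nearest start to the first Tinman-site entries by score. The DRE windows lie at CycA, which encodes a mitotic cyclin, and at Usp7, which encodes a deubiquitinase.

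Reproduced entries were found at genes of the heart programme. Of the 20 heart and dorsal mesoderm genes listed, 8 (40%) had a reproduced entry in the gene body or within 2 kb, where 12.8% of all 13945 protein-coding genes did (1786 genes). The 8 were tin, Mef2, pnr, Doc1, Doc3, zfh1, lbl and how. Genes of that list had a median length of 7.17 kb, against 2.17 kb for all genes, and the part of gene length in the count was not tested. Of the 13 visceral mesoderm genes, 2 had one (15.4%), bap and bin. The lists were drawn up with earlier results of these data known, and no test was made of them.

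At pnr the entry chr3R:16033975-16034404 scored 136 in the pooled list at rank 5992. It ranked 6744, 6930 and 6201 in replicates 1, 2 and 3, and the 3 summits fell within 80 bp of each other. Its summit lies 396 bp from the start of pnr and 15337 bp from the nearest IDR summit. At Doc3 the entry chr3L:9004769-9005198 scored 145 at rank 5612 and ranked 7153, 4364 and 6245 in the replicates, with its summit 212 bp upstream of the gene. These were the genes of the heart list with a reproduced entry and no IDR peak, 2 of the 9 that lacked an IDR peak. Among all 8283 protein-coding genes without an IDR peak, 9.65% had a reproduced entry (799 genes, 5.73% of all genes). In the visceral list bap, an NK homeodomain gene that Tinman is known to activate, was the 1 gene of 4 without an IDR peak to have a reproduced entry. That entry, chr3R:21390888-21391317, scored 127 at rank 6527 and lay downstream of the gene, 2223 bp from its start, with ranks of 9090, 4198 and 5683.

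The tin locus itself held a pair of reproduced entries. The stronger, chr3R:21377171-21377600, had its summit 15 bp from the start of mod(mdg4), the neighbouring chromatin insulator gene, and 1591 bp upstream of tin. It ranked 3820 and 6488 in replicates 1 and 2 but 11840 in replicate 3, close to the limit of 12000. The weaker, chr3R:21383498-21383927, ranked 6607, 7019 and 7790, above its pooled rank of 9183 in every replicate. Mef2, the MADS-box factor of all fly muscle, had an entry 52 bp upstream of its start with ranks of 5143, 6567 and 6654. An IDR summit lay 993 bp from it. The entry at how, which encodes an RNA-binding protein of muscle and tendon, lay 29 bp upstream of its start, ranked 8657 in the pooled list and 9460, 4851 and 7499 in the replicates. Entries at zfh1 (a zinc finger homeodomain gene, rank 5764), lbl (ladybird late, a homeodomain gene of cardiac and muscle founder cells, rank 5719), Doc1 (rank 6936) and bin (a forkhead gene of visceral mesoderm, rank 6052) lay in introns. Replicate 2 placed the entries at Doc3, zfh1, lbl, bin, bap and how among its first 5508, while replicate 1 placed the same entries between 6919 and 9460. Of the genes in this paragraph, all but Doc3 and bap also had an IDR peak in the body or within 2 kb. The best pooled rank was 44 at Mef2, 225 at zfh1, 397 at tin, 406 at bin, 1299 at how, 1384 at Doc1 and 4666 at lbl.

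**Figure D1:**
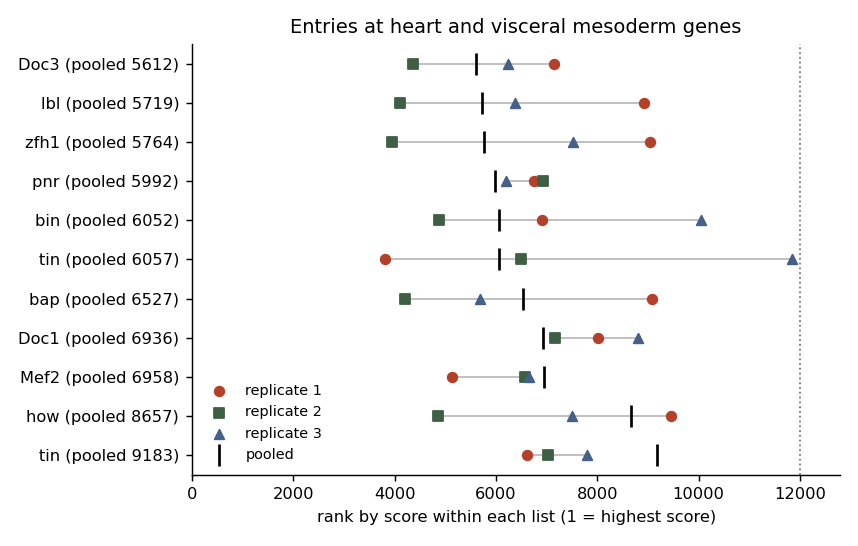
Rank by score in each list (horizontal axis, 1 is the highest score) of the 11 reproduced entries at heart and visceral mesoderm genes, with 1 row per entry, symbols for replicates 1 to 3, a bar for the pooled list and a dotted line at the limit of 12000. The entry at pnr has its 3 replicate ranks between 6201 and 6930, while the stronger entry at tin spans 3820 to 11840.

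In the other lists the share of genes with a reproduced entry ran from 0 to 38.5%, around the 12.8% of all genes. Of 25 genes of muscle structure and fusion 7 had one (28%), among them rols, sns and kirre, which act in myoblast fusion, and Tm1, a tropomyosin. Of 16 genes of somatic muscle identity 2 had one (12.5%). Of 20 genes of the heart matrix and lumen 5 had one (25%), among them trol (perlecan), Ndg (nidogen), Dg (dystroglycan) and if (an integrin subunit). Of the 24 genes matched in the list of Dpp, Wg, EGFR and Notch pathways 8 had one (33.3%), all with an IDR peak too. The highest-scoring were the receptor genes fz2, tkv, Egfr and fz. In that list the symbol Notch matched no gene, and dl is dorsal and not Delta. Its Notch genes were thus Ser and E(spl)m8-HLH, neither with a reproduced entry. Of 13 epidermal and tracheal genes 5 had one (38.5%), including grh and trh, against 0 of 8 haemocyte genes and 0 of 4 fat body genes. The count was 2 of 20 for Hox and segmentation genes (10%), 1 of 14 for the nervous system (7.14%), 1 of 10 for the gut (10%) and 1 of 9 for the germline (11.1%). It was 1 of 6 for early mesoderm and FGF genes (16.7%), 2 of 6 for GATA factors and cofactors (33.3%) and 3 of 16 for chromatin and insulator genes (18.8%). The lists hold some genes outside their class, such as Ubc7 (a ubiquitin-conjugating enzyme gene) under somatic muscle identity. The germline list holds Nos (nitric oxide synthase) and not nanos, and neither Ubc7 nor Nos had a reproduced entry. Cytoplasmic ribosomal protein genes (10 of 92, 10.9%) and mitochondrial ones (12 of 73, 16.4%) stood near the 12.8% of all genes. The median gene length was 23.5 kb in the epidermal and tracheal list, 16.8 kb in the GATA list and 13.4 kb in the pathway list. It was 16.5 kb in the muscle structure and the heart matrix lists and 1.31 kb in the cytoplasmic ribosomal list, against 2.17 kb for all genes. Lists with lower shares had long genes too, at 22.5 kb for early mesoderm, 13.5 kb for somatic muscle identity and 12.2 kb for Hox and segmentation. The part of gene length in these shares was not tested. Of the 1786 genes with a reproduced entry, 987 (55.3%) also had an IDR peak, against 52.4% of the 2667 genes with an unreproduced entry and 40.6% of all protein-coding genes, and the median length of genes with a reproduced entry was 4.87 kb.

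Pooled scores of the reproduced entries ran from 86.6 to 147, with a median of 122, against a median of 102 for the unreproduced entries, 253 for the 5508 IDR peaks and 48.1 for the 19307 entries ranked below 10000 that overlapped no IDR peak. Their deposited −log10 q values ran from 1.58 to 4.05 with a median of 3.08. The value 4.05 is the one that every IDR peak carries, and 41 reproduced entries had it. The first reproduced entries, at ranks 5509, 5512 and 5513, scored 147, as did the last IDR peak at rank 5508. The last, at ranks 9954, 9972 and 9986, scored 86.6 to 86.9. At the replicate limit, the weakest replicate ranks kept were 11981, 11986 and 11997, and the first just outside were 12002, 12003 and 12017.

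The share of the band that was reproduced followed the pooled rank. From rank 5509 to 6000, 316 of 434 entries were reproduced (72.8%, Wilson 95% interval 68.4 to 76.8), and from 9501 to 10000, 54 of 453 were (11.9%, 9.25 to 15.2). Each bin had a lower share than the bin above it, though several neighbouring intervals overlapped, as in the first pair, where the second bin stood at 70.2%. The rule itself ties these quantities, since the pooled signal is made from the replicates.

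**Figure D2:**
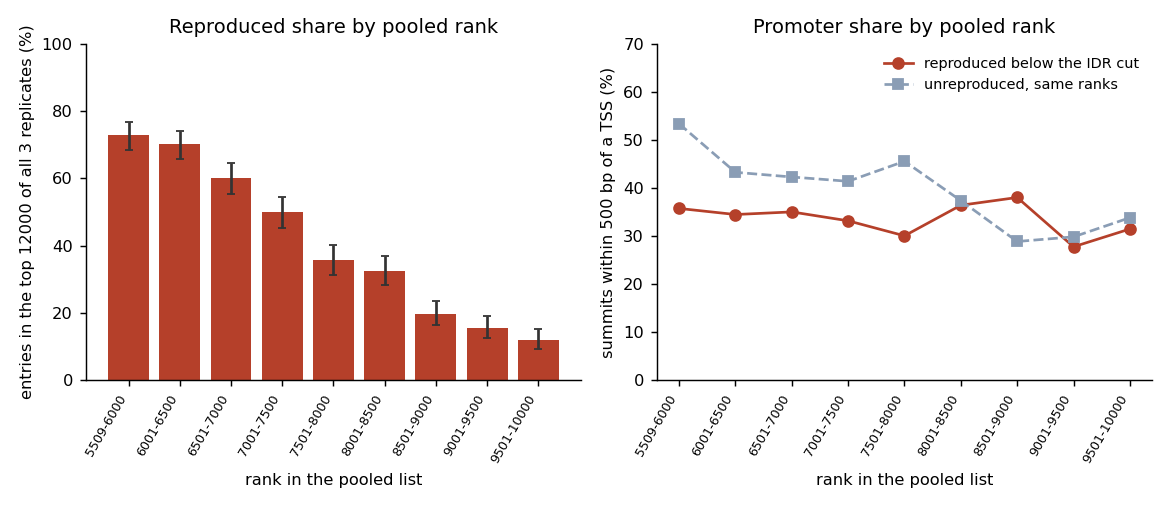
Left, percent of pooled entries in each bin of pooled rank that recurred in the top 12000 of all 3 replicates, with Wilson 95% intervals. Right, percent of summits within 500 bp of a transcription start site (TSS) in the same bins, for reproduced (circles) and unreproduced (squares) entries. The reproduced share goes from 72.8% in the highest bin to 11.9% in the lowest, and promoter shares in the highest bin are 35.8% for reproduced and 53.4% for unreproduced entries.

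Inside the bounded ranks that the rule allows, the replicates gave the reproduced entries no common order. Their median ranks were 7769, 7311.5 and 7105.5 in replicates 1, 2 and 3. The Spearman correlation of ranks across the 1664 entries was -0.0076 for replicates 1 and 2, -0.032 for 1 and 3 and 0.042 for 2 and 3, where the IDR peaks gave 0.773, 0.794 and 0.803. The reproduced entries share a bounded range of ranks, which the rule set, so these values are not a measure of agreement to set against that of IDR peaks. The standard deviation of an entry's 3 ranks had a median of 1806, against 5028 for the 1695 unreproduced entries present in all 3 lists and 614 for IDR peaks. Of the 1664 entries, 922 were in the first 5508 of no replicate, 619 of 1, 114 of 2 and 9 of all 3.

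Those 9 entries lay at comm, raskol, Spn, chm, Pect, CG42258 and regucalcin, and at Fas2 with a pair. The entry at the promoter of comm, which controls midline crossing of axons, ranked 5578 in the pooled list and 4866, 5261 and 5444 in the replicates. The entry at raskol, a Ras GTPase-activating protein gene, ranked 7067 in the pooled list and 5126, 5424 and 4708 in the replicates, with summits within 15 bp. The entries at Fas2, a homophilic adhesion gene, ranked 6480 and 8107 and overlapped the same replicate entries, which ranked 4253, 4173 and 4472. CG42258 had the lowest mean rank of all, 2773 ± 646 (SD, n = 3), beside a pooled rank of 8973. Its replicate entries also overlapped an IDR peak, whose summit lies 296 bp away. That overlap with an IDR peak held for 4 of these 9 entries and 5 of the 20 with the lowest mean rank, but for 7 of all 1664. The other 1657 (99.6%) had, in all 3 replicates, an entry within the limit that overlapped no IDR peak. Between 172 and 181 of the reproduced entries shared their replicate entry with another of them, depending on the replicate, and 90 pairs overlapped each other.

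The replicate summits of the reproduced entries did not coincide as closely as those of IDR peaks. All 3 lay within 50 bp in 26.9% of the reproduced entries, against 28.4% of the 1695 unreproduced entries with all 3 summits and 57.4% of 5434 IDR peaks. The difference from IDR peaks was -30.6 points (95% interval -33.0 to -28.0, from Fisher's exact test p = 2.63e-108, two-sided). From unreproduced entries they differed by -1.51 points, with an interval of -4.53 to 1.51, which was not past the threshold (Fisher's exact test, two-sided, p = 0.335). The median range of the 3 summits was 96 bp for reproduced entries, 92 bp for unreproduced entries and 42 bp for IDR peaks. These summits belong to the replicate entries that the rule used, and the sets were split by score. The p-values thus describe these lists only. The most common pooled width was held by 99.4% of reproduced entries, against 55.2% of IDR peaks. The part of entry width and of score in the difference was not tested.

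The summits lay less often at promoters than those of IDR peaks and more often than those of weaker entries. Of the 1664 summits, 569 (34.2%, Wilson 95% interval 32 to 36.5) were within 500 bp of the start of a protein-coding gene, against 49.3% of IDR peaks, a difference of -15.1 points (Fisher's exact test with Benjamini-Hochberg adjustment over 6 classes, adjusted p = 5.03e-27). The entries below rank 10000 had 19.5% (difference 14.7 points, same exact test, adjusted p = 1.52e-40). Introns held 39.9% of the reproduced summits, against 32.3% of IDR peaks (exact test, adjusted p = 2.84e-08). Intergenic sequence held 23.8%, against 16.9% of IDR peaks (exact test, adjusted p = 2.00e-09). Coding exons held 8 reproduced summits (0.481%), against 9.82% of the entries below rank 10000 (exact test, adjusted p = 4.01e-58), while 1.03% of unreproduced entries and 0.218% of IDR peaks lay there and neither difference passed (exact test, adjusted p = 0.147 and 0.127). The intron share did not pass against the 37.9% of unreproduced entries (exact test, adjusted p = 0.230). The promoter share was 34.3% ± 0.060 (SD, n = 3) when the summit of each replicate's own entry was used. Those entries had to overlap the same pooled entries, so this SD does not measure the spread between replicates. The median distance to a gene start was 1537 bp for reproduced entries, 1326 bp for unreproduced entries, 527 bp for IDR peaks and 2542 bp for lower entries. Summits are counted in these tests, and several can share a promoter or a replicate entry, so the p-values describe these lists and not the spread between embryos.

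**Figure D3:**
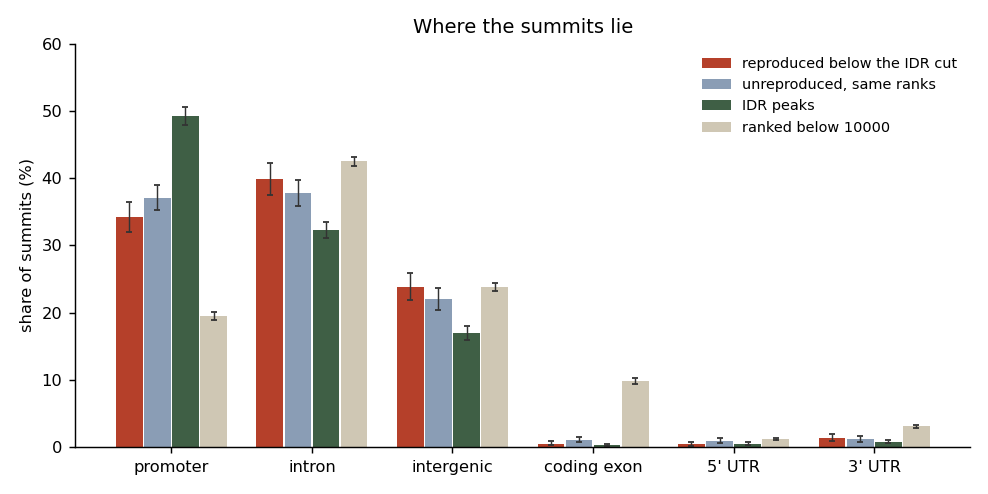
Percent of summits in each annotation class (vertical axis) for reproduced entries below the IDR cut, unreproduced entries of the same ranks, IDR peaks and entries ranked below 10000, with Wilson 95% intervals. The promoter share of the reproduced entries, 34.2%, lies between those of the IDR peaks, 49.3%, and the lowest set, 19.5%.

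Against the unreproduced entries of the same band the promoter share differed by -2.92 points (34.2% of reproduced and 37.1% of unreproduced entries), which was not past the threshold (Fisher's exact test, adjusted p = 0.147). Reproduced entries rank higher within the band, and compared within the 9 rank bins by the Mantel-Haenszel method the difference was -6.76 points (exact conditional test, adjusted p = 0.00046). In the highest bin the promoter shares were 35.8% for reproduced and 53.4% for unreproduced entries, and in the lowest 31.5% and 33.8%. The share was lower for reproduced entries in 8 of the 9 bins and higher in the bin from rank 8501 to 9000 (38.0% of reproduced and 28.9% of unreproduced entries). The share also hung on which replicate lacked the entry. Among entries missing from the top 12000 of replicate 1 only, 17.8% of 465 were at promoters, which was 16.3 points under the reproduced entries (Fisher's exact test, adjusted p = 4.25e-12). Among those missing from replicate 2 only, 34.2% of 643 were, the same as the reproduced entries to within 0.020 points (95% interval of the difference -4.39 to 4.23). Among those missing from replicate 3 only, 49.5% of 849 were, 15.3 points over the reproduced entries (Fisher's exact test, adjusted p = 5.57e-13). Without the demand on replicate 3 the difference in promoter share turned to 8.86 points, without that on replicate 1 it was -11.0 and without that on replicate 2 it was -3.96, and each of these passed the threshold (Fisher's exact test, adjusted p = 5.16e-08, 1.26e-12 and 0.037). The list of replicate 3 is the shorter one, and 500 unreproduced entries had no entry in it at any rank, against 80 in replicate 1 and 185 in replicate 2. Whether list length bears on this was not tested.

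The X chromosome was over-represented. It held 413 of the 1664 reproduced entries (24.8%, Wilson 95% interval 22.8 to 27), against 17.9% of unreproduced entries and 18% of IDR peaks, and it makes up 17.6% of the assembled length of the 6 arms. The difference was 6.94 points from unreproduced entries (95% interval 4.38 to 9.53, Fisher's exact test adjusted over 6 arms, p = 5.37e-07) and 6.86 points from IDR peaks (4.60 to 9.22, adjusted p = 8.95e-09). Within the 9 rank bins the difference from unreproduced entries was 8.09 points (exact conditional test, adjusted p = 1.65e-07). The X carried 17.5 reproduced entries per Mb and the other arms together 11.3, while IDR peaks stood at 42.0 and 41.0 per Mb and unreproduced entries at 18.5 and 18.1. Within promoters the X held 26.2% of reproduced entries, against 18.2% of unreproduced entries and 15.5% of IDR peaks (Fisher's exact test over 6 comparisons, adjusted p = 0.00094 and 2.35e-08). Within introns it held 28.6%, against 21.4% and 23.5% (exact test, adjusted p = 0.0022 and 0.015), and in intergenic sequence 15.4%, against 10.8% and 13.2%, where neither difference passed (exact test, adjusted p = 0.056 and 0.298). Arm 3R had fewer reproduced entries than IDR peaks in share, 20.3% against 24.5% (exact test, adjusted p = 0.00086), and arm 2R fewer than unreproduced entries, 15.1% against 18.2% (exact test, adjusted p = 0.029).

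Read per arm, 48.7% of the 848 band entries on X were reproduced (Wilson 95% interval 45.4 to 52.1), against 38.5% of the 3249 on the other arms (36.8 to 40.2). The separate arms 2L, 2R, 3L and 3R gave 36.2% to 40.9%, and the small chromosome 4 gave 5 of 24 entries. Replicate 3 carried most of the gap. Its top 12000 held 78.3% of the X entries and 69.1% of the others, a difference of 9.23 points, where replicate 1 gave 83.8% and 81.3% (2.50 points) and replicate 2 gave 77.5% and 75.5% (1.98 points). All 3 differences had the same sign, with a mean of 4.57 ± 4.05 points (SD, n = 3), and with 3 replicates an exact sign-flip test cannot go below p = 0.25. Without the demand on replicate 3 the excess over unreproduced entries was 2.76 points and no longer past the threshold (Fisher's exact test, adjusted p = 0.215). The X share of each replicate's own first 5508 entries was 17.5%, 17.8% and 19.3% in replicates 1, 2 and 3, and past rank 12000 it was 18.9%, 19.5% and 16.3%.

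**Figure D4:**
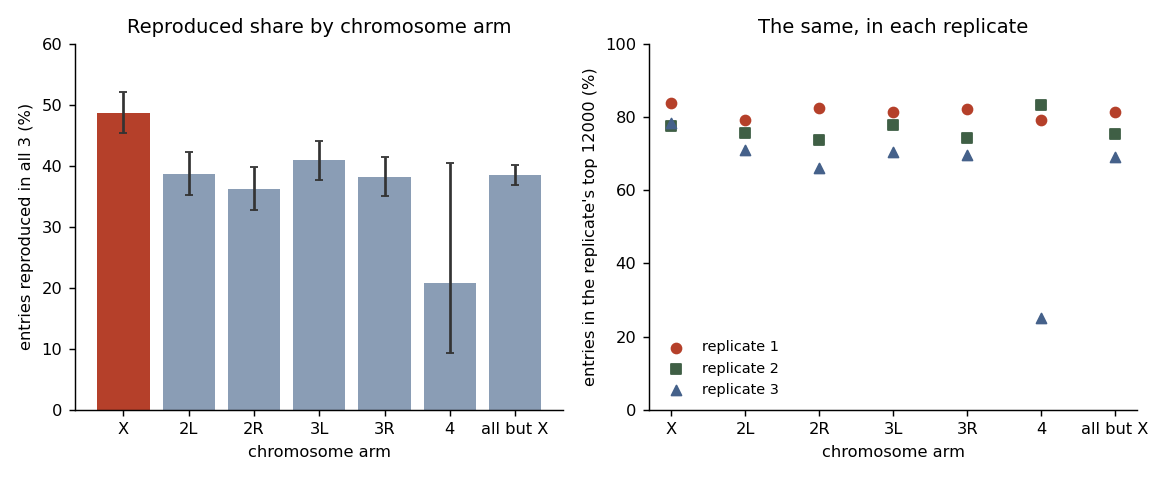
Left, percent of the band entries on each chromosome arm that recurred in the top 12000 of all 3 replicates, with Wilson 95% intervals, and the X in red. Right, the percent in the top 12000 of each replicate by itself. X stands at 48.7% and the other arms together at 38.5%, and replicate 3 (triangles) shows the widest gap, with 78.3% on X and 69.1% elsewhere.

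Motifs were sought on both strands in the 101 bases around each summit and in windows of the same length centred 500 bp to either side. The Tinman letters TCAAGTG or TTAAGTG were in 76 reproduced summit windows (4.57%, Wilson 95% interval 3.66 to 5.68) and in 3.67% of the left and 3.67% of the right flanks, against 4.36% of all 30000 pooled windows. The difference from the left flank, 0.90 points (95% interval -0.44 to 2.24), was not past the threshold (exact McNemar test, adjusted over 10 motifs, p = 0.363). The same test passed in unreproduced entries on the left (5.14% and 3.37%, exact McNemar test, adjusted p = 0.0074) but not on the right (3.99%, adjusted p = 0.129), and in IDR peaks on both sides (4.23% at summits, 3.36% left and 2.94% right, adjusted p = 0.027 and 0.00046). Whether the excess over the flanks differs between the sets was not tested. The Tinman share of reproduced summits did not pass against the 5.14% of unreproduced entries (difference -0.57 points, -1.88 to 0.80, adjusted Fisher's exact p = 0.998) or that of IDR peaks (0.34 points, -0.73 to 1.56, adjusted p = 0.766). Over the whole entry, usually 430 bp, 17.4% of reproduced and 16.6% of all pooled entries held it. The summits of the replicates' own entries, which overlap the same pooled entries by rule, gave 4.79% ± 0.66 (SD, n = 3). Of the 10 entries that lead at the heart and visceral mesoderm genes, 1 held the site in its summit window (pnr) and 4 held it anywhere in the entry (pnr, Doc3, zfh1 and bin). The weaker entry at tin, which is not among them, also held it in the entry, though not in its summit window.

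The DRE, the Beaf-32 letters, Ohler motif 1 and the Mef2 site were more frequent at reproduced summits than in their flanks. The DRE letters TATCGATA were in 1.68% of reproduced summit windows and 0.481% of left flanks (exact McNemar test, adjusted p = 0.0040; 1.33% of all pooled windows). ATCGAT, the letters bound by the insulator protein Beaf-32, which are contained in the DRE, were in 6.31% and 3.12% (exact McNemar test, adjusted p = 0.00019; 4.71% of all pooled windows). Ohler motif 1, a core promoter element, was in 15 summit windows (0.90%) and 0 left flanks (exact McNemar test, adjusted p = 0.00031; 0.513% of all pooled windows), and all 15 were at promoters. The Mef2 site was in 4.87% and 3.12% (exact McNemar test, adjusted p = 0.033; 3.54% of all pooled windows), a call that was lost in 5 of the alternatives tried. The other sets had such an excess too. In unreproduced entries the DRE was in 3.00% of summits and 0.329% of left flanks, the Beaf-32 letters in 7.81% and 3.41% and Ohler motif 1 in 0.904% and 0.041% (exact McNemar test, adjusted p = 1.06e-13, 4.43e-11 and 1.91e-05). In IDR peaks the DRE was in 2.58% and 0.20%, the Beaf-32 letters in 7.19% and 3.30% and Ohler motif 1 in 0.708% and 0.054% (exact McNemar test, adjusted p = 3.54e-29, 1.92e-19 and 1.13e-08). The Mef2 site was in 3.62% of unreproduced summits and 2.67% of their left flanks, which did not pass, and in 6.45% and 2.60% for IDR peaks (exact McNemar test, adjusted p = 0.129 and 1.37e-21). In reproduced entries the letters of the GAGA factor (GAGAGAG), of bHLH proteins (CATATG or CACCTG), of GATA factors (AGATAAG) and of Zelda (CAGGTAG) did not pass, with differences from the left flank of -1.20 to 0.18 points.

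**Figure D5:**
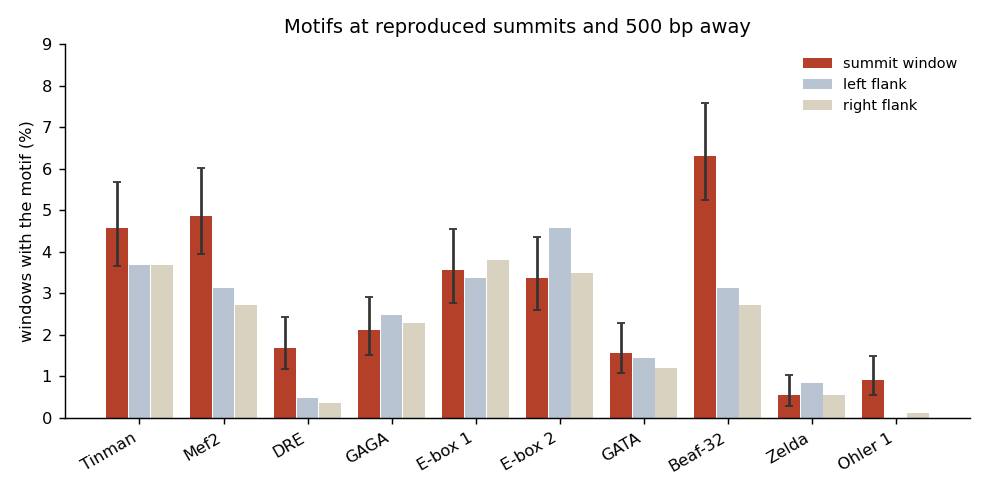
Percent of 101-bp windows with each of 10 motifs (vertical axis) at the 1664 reproduced summits (red, with Wilson 95% intervals), and 500 bp to the left and right. E-box 1 is CATATG and E-box 2 is CACCTG. The Beaf-32 letters stand at 6.31% at summits and 3.12% in left flanks, and the Tinman site at 4.57% and 3.67%.

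Between sets, the DRE was in 1.68% of reproduced entries, against 3.00% of unreproduced entries (difference -1.32 points, 95% interval -2.23 to -0.36) and 2.58% of IDR peaks, and neither difference passed after adjustment (Fisher's exact test, adjusted p = 0.075 and 0.115). Within the 9 rank bins the difference from unreproduced entries was -2.07 points (exact conditional test, adjusted p = 0.0019). Of the unreproduced entries missing only from replicate 1, 1.08% had a DRE, against 3.27% of those missing only from replicate 2 and 3.77% of those missing only from replicate 3. GAGAGAG was more frequent in reproduced entries than in IDR peaks, 2.10% against 1.11% (difference 1.00 points, 0.33 to 1.84, Fisher's exact test, adjusted p = 0.032), and lost that call in 5 alternatives. At promoters the Mef2 site was in 3.51% of 569 reproduced entries, against 6.30% of IDR peaks, and CACCTG in 5.10%, against 2.76% (Fisher's exact test, adjusted p = 0.034 each). Over all entries neither difference passed (Fisher's exact test, adjusted p = 0.095 for Mef2 and 0.317 for CACCTG). Outside promoters neither passed, with the Mef2 site in 5.57% and 6.59% and CACCTG in 2.47% and 2.51%. The split by place was chosen after seeing the data.

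Words of 7 letters were ordered by their ratio of summit windows to the mean of the flanks among the 1664 entries. To each count 10 was added before the ratio was taken, and the places hold for this ratio only. Out of 8192 words counted with their reverse complements, CAGTGTA came first, and ATCGATA, part of the DRE, came at place 5. CAGTGTA was in 3.49% of the reproduced summit windows, against 3.33% of unreproduced entries and 2.83% of IDR peaks. CAGTGCA, at place 2, was in 5.29%, against 4.23% and 3.27%. ATCGATA went the other way, with 4.57% of reproduced entries, against 6.33% and 5.63%. The Tinman words, CACTTAA for one core and CACTTGA for the other, came at places 1793 and 1919. The order was read from the same windows and has no test. The G and C content of the summit windows averaged 37.2% ± 9.68 (SD over 1664 entries), against 39.4% in unreproduced entries, 35.4% in IDR peaks and 43.9% in lower entries, while the flanks of the reproduced entries averaged 43.5% and 42.9%. Motif shares move with base composition, and its part in these differences was not tested.

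Reproduced entries lay near IDR peaks more often than weak entries did. An IDR summit was within 5 kb of 828 of the 1664 (49.8%), against 47.6% of unreproduced entries (Fisher's exact p = 0.171) and 42.9% of the entries below rank 10000 (difference 6.86 points, 95% interval 4.36 to 9.36, Fisher's exact p = 6.97e-08). The median distance to an IDR summit was 5044 bp, against 5504 bp for unreproduced and 6418 bp for lower entries. Of the reproduced entries 504 (30.3%) had another within 5 kb. Summits in repeat-masked sequence made up 19.4%, against 17.7% of unreproduced entries and 20% of IDR peaks, and neither difference passed (Fisher's exact p = 0.163 and 0.624). No gene body lay within 2 kb of 259 of the reproduced summits, and 623 had more than 1 gene there, so that a count over genes can take the same entry more than once.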

How the data were processed

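Chromatin immunoprecipitation was done on whole embryos, with 3 biological replicates numbered by the labels, which form 1 group. Per the labels and the notes deposited with the lists, the authors made a list of peaks and background per replicate, a pooled list, and an IDR list derived from them. The aligner, peak caller, IDR threshold and control were not given in the sources used here. Entries were measured by the signal score that the authors deposited, which has no stated normalization and ranks entries within a list. The −log10 q values that the authors deposited serve as a description only. The lists hold no counts, so the depth is unknown, and intervals on shares cover counting error only.

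All 5508 IDR peaks are the first 5508 of the pooled list. Overlap was counted from 1 bp. Sequence came from RefSeq Release 6 (dm6) and 13945 protein-coding genes on 6 arms from Ensembl release 115. Each summit has 1 class, the earliest of: promoter (500 bp either way from a gene start), 5' UTR, coding exon, 3' UTR, intron and intergenic. Sets of entries were compared by two-sided Fisher's exact tests (adjusted by Benjamini-Hochberg over classes, arms or motifs, with Newcombe intervals), and summits with their own flanks by exact McNemar tests, with a threshold of 0.05. Comparisons within 9 rank bins give the Mantel-Haenszel difference, with an exact conditional p. Tools were Python 3.11.15, pandas 2.3.3, numpy 2.4.6, scipy 1.17.1 and matplotlib 3.10.9, and the overlap search, the tests and the motif search were tested on simulated data.

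The entries, gene lists and comparisons were chosen with earlier results of these data known. Named genes are those of the heart and visceral lists with a reproduced entry, the 4 with the highest-scoring entry of each other list, and those at the 20 entries with the lowest mean rank and at the ends of the band. The 9 entries within the first 5508 of every replicate, the comparisons of entries missing from a single replicate, of X by class and within rank bins, and the check of shared replicate entries were added after the data were seen. Of the listed symbols 2 matched no gene, mdr and Notch. Printed windows for the Tinman-site and DRE entries whose motif lay outside the 61 bases were left out.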

Additional observations from a re-analysis of the deposited data

How the results depend on the processing

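Over 23 tested differences, 290 alternatives were run, of which 232 kept the direction and the side of the threshold. For 2 counts without a test, 17 of 21 alternatives stayed within 1.5 times the reported count. Differences are in percentage points, and the cause of a change was not tested. No paired analysis was possible because the 3 replicates form 1 group. Leaving out the demand on 1 replicate gave 2129 to 2513 reproduced entries and 948 to 1265 genes with one and no IDR peak, the highest without replicate 3, and a replicate limit of 10000 gave 1036 and 465.

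Against unreproduced entries, leaving out a replicate moved the promoter difference between -11.0 and 8.86, the coding exon difference between -0.85 and -0.015, the intron difference between -4.65 and 5.51, the DRE difference between -1.91 and -0.20, the share near an IDR peak between -0.24 and 4.88, the repeat-masked share between -0.71 and 1.49 and the X excess between 2.76 and 6.68. The promoter, intron and repeat-masked differences changed sign and the X call was lost without replicate 3, and the difference in the share near an IDR peak changed sign without replicate 1. The promoter and intron differences passed without each replicate in turn, the coding exon difference without replicate 2 or 3, the DRE difference without replicate 1 and the share near an IDR peak without replicate 3. Against IDR peaks it moved the coding exon difference between 0.26 and 0.58, the DRE difference between -1.03 and -0.19, the Mef2 difference between -1.98 and -1.87 and the GAGAGAG difference between 0.63 and 1.32. Of these, the coding exon and DRE differences passed without replicate 1 and the Mef2 difference without each replicate in turn. The promoter difference from unreproduced entries passed at -5.90 with a limit of 15000, -10.5 with the band ending at 8000, -5.36 with an overlap of at least 50% of the entry, -9.69 in the upper part of the band and -6.76 within rank bins. The intron difference passed at 3.78, 6.59 and 5.90 under the limit of 15000, the band to 8000 and the upper part, and was -0.035 in the lower part. The DRE difference passed at -1.62 with the limit of 10000, -1.92 with the band to 8000, -2.22 in the upper part and -2.07 within rank bins.

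Against IDR peaks, the coding exon difference passed at 0.42 with the limit of 15000 and 0.37 against the lower-scoring IDR peaks. The DRE difference passed at -1.26 against the lower-scoring IDR peaks and -1.69 in windows of 100 bp either side. The Mef2 difference passed at -1.75 with the limit of 15000 and -3.10 in the wider windows. The GAGAGAG call was lost at 0.63 without replicate 2, 0.92 with the limit of 10000, 0.67 with the band to 8000, 0.96 with the overlap of 50% and 0.93 with overlapping entries counted once.

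The Tinman difference changed sign to 0.078 from unreproduced entries in the lower part of the band. From IDR peaks it changed to -0.18 with the limit of 10000, -0.050 in windows of 25 bp either side and -0.31 in windows of 100 bp. From the left flanks it changed to -0.060 in windows of 25 bp. None of these passed the threshold. The share near an IDR peak differed by -0.56 at 1 kb and passed at 3.09 at 10 kb and at 7.86 in the lower part of the band, and the repeat-masked difference was -0.13 with the limit of 15000. The DRE excess over the flanks missed the threshold at 0.77 with the limit of 10000, and that of Ohler motif 1 at 0.36 in windows of 25 bp. The X excess over IDR peaks and the promoter and intron differences from IDR peaks passed in all alternatives run for them. On dm3 the same rule gave 1888 entries. There the band began at rank 5215, after 5214 IDR peaks, and the pooled list held 28230 entries.

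The lists state no depth, and a score without a stated normalization cannot be set against that of another list, so all values rest on ranks within a list. Alternatives for the X, the GAGAGAG and the summit agreement results and for the DRE, Mef2, Beaf-32 and Ohler motif 1 shares against flanks, the comparison within rank bins, the comparisons of motifs in promoter entries only or outside promoters only, and the use of replicate entries that overlap no IDR peak were chosen after seeing the data.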
